A study of Homo sapiens with 24 samples.

Results

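The genes described are 44 genes of DNA replication and S phase, taken from a fixed list of names, among the 34496 genes of the 6 deposited tables. Every one of the 44 was listed in all tables and passed the filter on low values (a mean of at least 10 normalized counts) in every comparison. They comprise 10 genes of origin licensing, 6 of helicase activation, 14 of the polymerases, clamp and ligase, 4 of nucleotide synthesis, 5 of fork protection and chromatin, and 5 of entry control. Poly(A) RNA was sequenced from glioma cell lines, and each table of normalized counts was analysed on its own.

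Before S phase, the origin recognition complex, CDC6 and CDT1 load rings of MCM2 to MCM7 on DNA, which licenses an origin to fire once per cell cycle. In S phase, CDC45 and the GINS complex join the ring to form the active helicase, the polymerase α and primase complex starts each strand, and PCNA, a sliding clamp loaded by the RFC complex, holds the polymerases that extend it. Many of these genes are transcribed late in G1 under E2F factors, so their messenger RNA is widely read as a sign of cells that enter or pass through S phase. Ribonucleotide reductase and thymidylate synthase supply the deoxynucleotides.

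The libraries labelled U87 MG and LN229 came from parental glioma lines, and those labelled U87-R and LN229-R came from lines derived from them that were kept in medium with 50 µM temozolomide, an alkylating drug used against glioma. All 4 lines were given 50 µM STM2457, an inhibitor of the m6A methyltransferase METTL3, or the same volume of DMSO for 96 h, with 3 replicates in each of 8 groups and 24 libraries in all. The medium of the parental lines held no temozolomide. U87 MG and U87-R were grown in EMEM with 10% serum and prepared with a TruSeq Stranded kit, and LN229 and LN229-R in DMEM with 5% serum and with a Watchmaker kit, so the origin of the line, the medium and the kit cannot be told apart. Nothing says that replicates were separate cultures, so each p-value here measures the spread among these samples alone, and that spread may be technical. The series asks how m6A methylation of mRNA bears on temozolomide resistance.

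Normalized counts per library summed to between 21232924 and 25349361 for U87 MG and U87-R, and to between 24101385 and 28716587 for LN229 and LN229-R. The DMSO libraries stand both in a resistance table (resistant against parental line) and in an STM2457 table, so these comparisons share them. Over 9933 to 11181 genes, each U87 library of the resistance table matched the library of the same name in the STM2457 tables, with an SD of log2 ratios of 0.058 to 0.060. Each LN229-family library matched the library of the same number under the other line's name (SD 0.058 to 0.062), while like-named libraries differed by an SD of 0.346 to 0.406. The same libraries thus carry exchanged line names in the 2 kinds of table, and which naming is right was not determined. LN229 and LN229-R below therefore mean the libraries as labelled, and the direction of every difference between them depends on it. Either name may stand for the line kept in temozolomide, also where LN229 or LN229-R is compared with a U87 line. Replicate 2 of the LN229 family also stood apart. The library labelled LN229-R DMSO replicate 2 in the STM2457 table, labelled LN229 DMSO replicate 2 in the resistance table, had a ribosomal protein share of 4.58%, while the other replicates of its group had 2.82% and 2.99%. VIM, at 24691 to 145063 normalized counts, and CD44 were high in all lines. SOX2 stood at 661 to 1390 in the LN229 family but at 0 to 2.34 in the U87 MG libraries, GFAP reached at most 227 in any library, and the blood cell marker PTPRC at most 5.36. Of the blood cell markers PTPRC, CD3E and CD14, 1 other than PTPRC passed the filter on low values between LN229-R and LN229 in DMSO. The same held for STM2457 against DMSO in LN229, and no blood cell marker passed the test described below in either comparison.

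Promoters are shown for the 5 genes with an entry that passed the test in at least 3 of the 6 comparisons described below, 4 of which fell under STM2457 while GINS3 rose; they were chosen after those values were seen. RefSeq promoter sequences (GRCh38.p14, 250 bases before to 50 after the annotated start) matched 38 of the 44 genes, and MCM4, MCM5, GINS4, POLD3, CCNE2 and E2F8 had none in the table used. An E2F motif, searched as TTTCCCGC, TTTCGCGC, TTTGCCGC or TTTGGCGC on both strands, was found in 20 of the 38 (52.6%) and in 3.31% of all 35116 promoters of the same length. The letters CCAAT, on both strands, were found in 21 of the 38 (55.3%) and in 34.6% of all promoters. A match of letters is a description and not a bound site. The stretch from 150 bases before to 30 after each start reads as follows, 5′ to 3′ along the gene, with matches to either motif in capitals; adjoining or overlapping matches run together.
TYMS (chr18:657503-657682, plus strand): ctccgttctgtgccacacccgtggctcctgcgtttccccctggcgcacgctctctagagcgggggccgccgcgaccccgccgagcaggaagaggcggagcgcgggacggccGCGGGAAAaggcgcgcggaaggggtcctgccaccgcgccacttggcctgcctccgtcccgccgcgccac
RRM2 (chr2:10122589-10122768, plus strand): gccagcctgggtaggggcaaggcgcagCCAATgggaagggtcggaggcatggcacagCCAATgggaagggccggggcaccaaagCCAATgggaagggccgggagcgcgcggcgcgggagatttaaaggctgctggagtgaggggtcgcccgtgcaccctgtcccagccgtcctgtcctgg
MCM6 (chr2:135876414-135876593, minus strand): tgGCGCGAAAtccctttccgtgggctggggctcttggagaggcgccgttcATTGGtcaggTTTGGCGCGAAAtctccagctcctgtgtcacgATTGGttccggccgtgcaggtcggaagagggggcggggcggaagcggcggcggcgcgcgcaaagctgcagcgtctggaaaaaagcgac
MCM7 (chr7:100101368-100101547, minus strand): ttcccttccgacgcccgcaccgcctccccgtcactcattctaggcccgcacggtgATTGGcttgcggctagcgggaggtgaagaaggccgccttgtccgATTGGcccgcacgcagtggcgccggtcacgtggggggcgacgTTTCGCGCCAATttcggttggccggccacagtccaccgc
GINS3 (chr16:58392321-58392500, plus strand): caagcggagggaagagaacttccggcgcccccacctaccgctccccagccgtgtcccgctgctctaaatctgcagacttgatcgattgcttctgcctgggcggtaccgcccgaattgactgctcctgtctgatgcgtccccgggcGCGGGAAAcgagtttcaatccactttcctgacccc
TYMS and GINS3 each held 1 E2F match and no CCAAT in this stretch, MCM6 held 3 E2F matches (2 of them overlapping) and 2 of CCAAT, MCM7 held 1 and 3, and RRM2 held none of E2F and 3 of CCAAT. GINS3 is annotated over chr16:58295080-58406144 in GRCh38, so the start shown lies inside that span. Of the 20 genes with an E2F match, 15 fell under STM2457 in the libraries labelled LN229, against 12 of the 18 without one. In U87 MG these counts were 5 of 20 and 1 of 18, in U87-R 2 of 20 and 1 of 18, and in LN229-R 8 of 20 and 2 of 18. Of all genes tested, 23.6%, 5.72%, 6.2% and 17.1% fell in these lines in the same order, so 2 of 20 in U87-R was close to the background. Without a match, 1 of 18 in U87 MG and 1 of 18 in U87-R were close to it too, and 2 of 18 in LN229-R was not above it. The 6 members without a promoter entry are in neither count, and the part of the motif in these falls was not tested. The files list TYMS as ENSG00000176890, RRM2 as ENSG00000171848, MCM6 as ENSG00000076003, MCM7 as ENSG00000166508 and GINS3 as ENSG00000181938.

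STM2457 lowered TYMS, the thymidylate synthase gene, and MCM6, a subunit of the licensing ring, in all 4 lines. RRM2 (the small subunit of ribonucleotide reductase), CCNE2 (cyclin E2) and MCM7 (another ring subunit) each fell in 3 lines. GINS3, a subunit of the GINS complex, went the other way and rose in 3 lines. A gene is called higher or lower where limma's adjusted p, after Benjamini and Hochberg over all genes tested, is under 0.05. By this rule 7 of the 44 genes fell and 1 rose in U87 MG, 4 fell and 1 rose in U87-R, 32 fell and 1 rose in the libraries labelled LN229, and 10 fell and none rose in those labelled LN229-R.
Among all genes tested, 5.72% fell and 7.86% rose in U87 MG, 6.2% fell and 8.46% rose in U87-R, 23.6% fell and 26.2% rose in LN229, and 17.1% fell and 21.5% rose in LN229-R. The share of members that fell was thus above the background in LN229, with 32 of 44 against 23.6%, and in U87 MG, with 7 of 44 against 5.72%. That share was close to the background in U87-R, with 4 of 44, and not far above it in LN229-R, with 10 of 44 against 17.1%. In both of these lines same-numbered libraries deviated together, which the fits used here leave out. With the replicate number as a block, 34 of the 44 fell in LN229-R, against 23.7% of all genes. In U87-R 10 fell with the block, against 13.9%. The median log2 change of the 44 genes was −0.28 in U87 MG, −0.04 in U87-R, −0.78 in LN229 and −1.03 in LN229-R, with medians of all genes between −0.02 and 0.00. The median in LN229-R was −0.37 without STM2457 replicate 2 and −0.65 without replicate 2 in both groups, and that in U87 MG was −0.15 without STM2457 replicate 1. These medians therefore give no order between LN229-R and LN229. In bulk RNA, fewer cells in S phase and less of these RNAs per cell cannot be told apart.

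**Figure D1:**
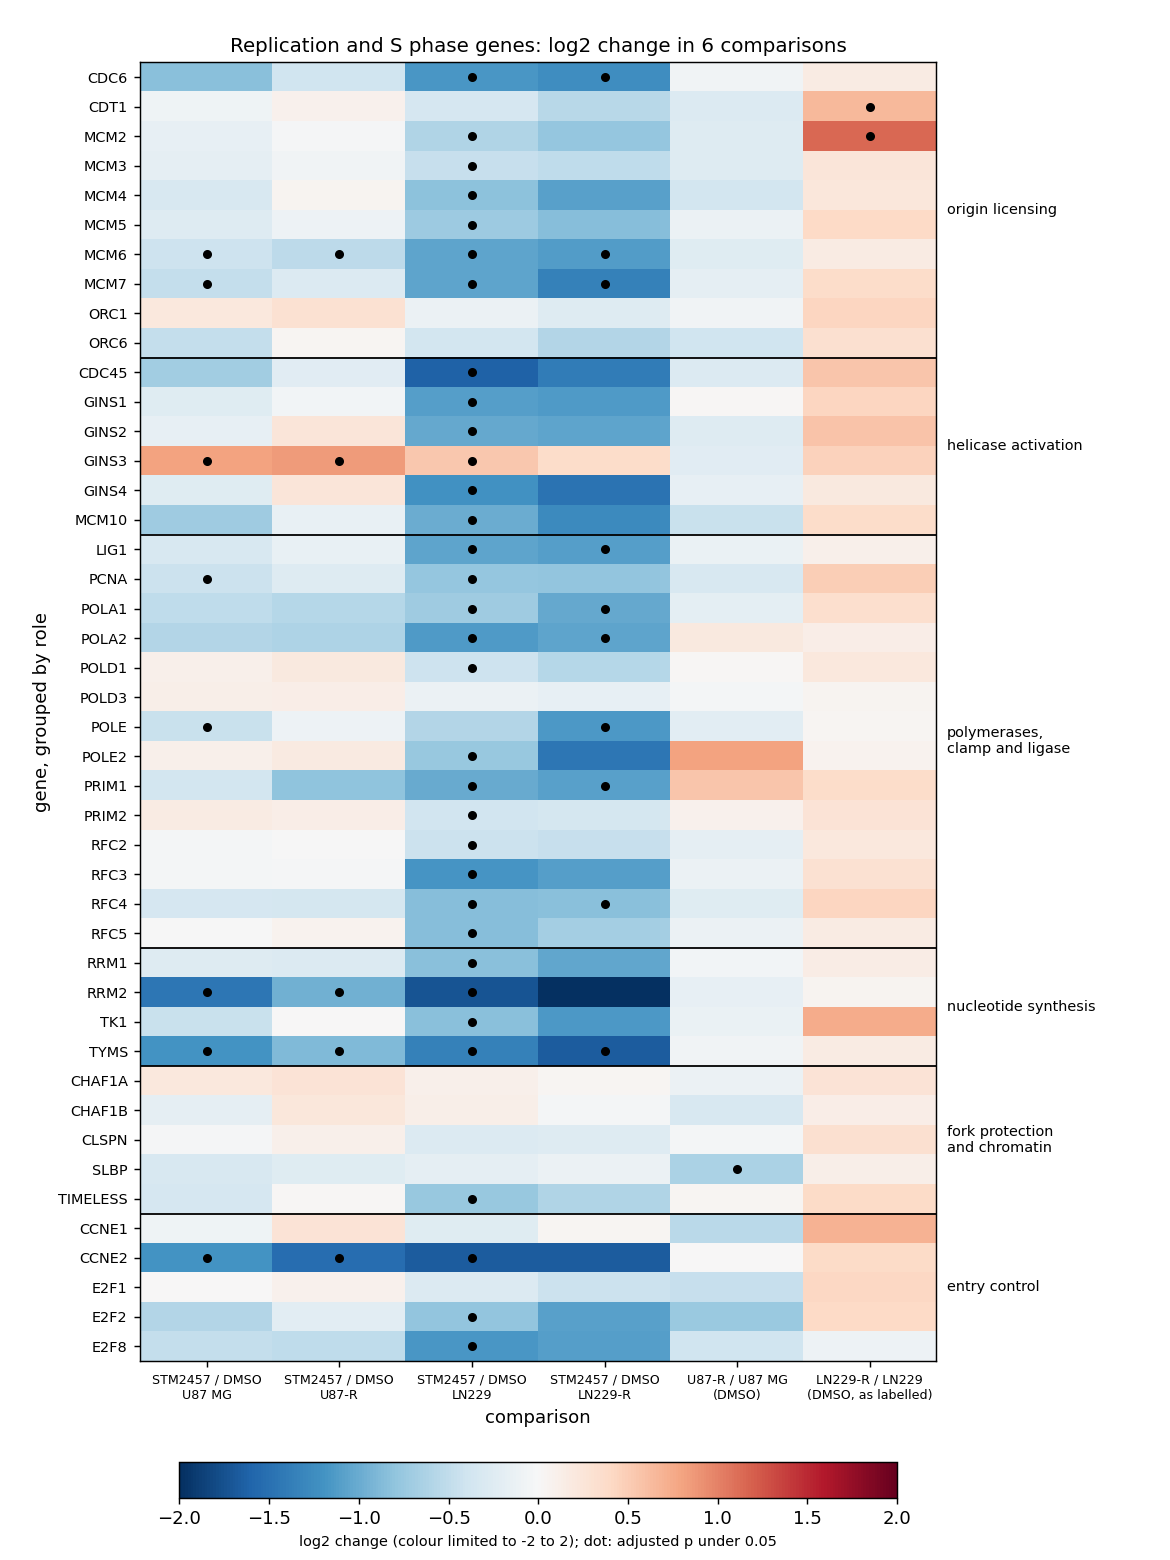
Log2 change of the 44 genes (rows, grouped by role) in 6 comparisons (columns), with the group before the slash over the one after it. A dot marks an adjusted p under 0.05 in the fit without the replicate block. In the LN229 column 33 genes have one, and 8, 5 and 10 in the U87 MG, U87-R and LN229-R columns.

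Across the 4 lines, 25 of the 44 genes had a negative change in every line, and 2 (GINS3 and CHAF1A, a subunit of chromatin assembly factor 1) had a positive one in every line. The 10 genes that passed in no line were ORC1, ORC6, CDT1, POLD3, CHAF1A, CHAF1B, CLSPN, SLBP, CCNE1 and E2F1. All STM2457 libraries lay below all DMSO libraries for 21 of the 44 genes in U87 MG, where 16.5% of all genes did so, for 10 in U87-R (16.9%), 35 in LN229 (29.9%) and 13 in LN229-R (25.6%). The 6 genes that did so in all 4 lines were MCM6, CDC6, PRIM1, POLA1, RRM2 and TYMS. How many of all genes meet a rule over all 4 lines was not counted, so the counts of 25, 2 and 6 genes have no background here.

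Nucleotide synthesis genes had the lowest median change of any role in all 4 lines: −0.82 in U87 MG, −0.58 in U87-R, −1.10 in LN229 and −1.41 in LN229-R. In LN229 the helicase activation genes were close, at −1.07. TYMS, which makes thymidylate, had 914, 1028 and 1157 normalized counts in STM2457-treated U87 MG, against 2072, 2135 and 2957 in DMSO. In U87-R it had 991, 986 and 1333 with STM2457, against 1914, 1840.0 and 2355 with DMSO. The groups did not overlap in either line, and the log2 changes were −1.20 ± 0.16 in U87 MG (SE, limma adjusted p = 0.00282) and −0.89 ± 0.15 in U87-R (adjusted p = 0.00671). In the libraries labelled LN229 it had 2553, 1079 and 2425 with STM2457, against 4609.6, 4733 and 5110.1 with DMSO, a change of −1.35 ± 0.29 (limma adjusted p = 0.00524). In those labelled LN229-R it had 2719, 569.6 and 2396, against 5849, 3223 and 6249, a change of −1.66 ± 0.56 (limma adjusted p = 0.0470). TYMS was followed through the LN229 lines after its values were seen, as were MCM6, MCM7, CCNE2 and GINS3 where they are not among the 8 genes of lowest adjusted p.

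RRM2, which sets the supply of deoxynucleotides in S phase, had 1076, 1174 and 1630.3 normalized counts in U87 MG with STM2457, against 2723, 3567 and 4264 with DMSO. Its log2 change was −1.44 ± 0.19 (limma adjusted p = 0.00306), and every treated library lay below every control. U87-R libraries had 1214, 1295 and 2154 with STM2457, against 2841, 2581 and 3391 with DMSO (−0.96 ± 0.21, limma adjusted p = 0.0180). Those labelled LN229 had 2687, 1371 and 3002 with STM2457, against 7223, 6893 and 8105 with DMSO (−1.73 ± 0.26, limma adjusted p = 0.000958). In both of these lines the groups were again apart. In the libraries labelled LN229-R it had 3635, 525 and 3329 with STM2457, against 9406, 4692 and 8964 with DMSO; the change of −1.99 ± 0.69 just missed the threshold (limma adjusted p = 0.0511), with the replicate 2 library lowest in each group. RRM1, the large subunit, and TK1, thymidine kinase, also fell in LN229 (4 of 4 genes of this role) but passed in no other line.

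Origin licensing genes fell in 7 of 10 cases in LN229, 3 in LN229-R, 2 in U87 MG and 1 in U87-R. Of all genes, 23.6%, 17.1%, 5.72% and 6.2% fell in the same order of lines. MCM6 had 2116, 2674 and 2528 normalized counts with STM2457 in U87 MG, against 3039.7, 3146 and 3597 with DMSO (−0.42 ± 0.12, limma adjusted p = 0.0468). In U87-R it had 1905, 1522 and 1719 with STM2457, against 2477, 2295 and 2598 with DMSO (−0.52 ± 0.11, limma adjusted p = 0.0177). The LN229 libraries had 2279.9, 1292 and 2089.9 with STM2457, against 3961, 3454 and 4021 with DMSO (−1.05 ± 0.19, limma adjusted p = 0.00271). Treated libraries lay below controls throughout, and in LN229-R too, where MCM6 had 2579, 920.3 and 2260.1 with STM2457, against 4594, 2820.1 and 4190.5 with DMSO (−1.11 ± 0.37, limma adjusted p = 0.0464). The U87 MG call for MCM6 is the least stable of these: it was lost on leaving out any 1 of the 6 libraries, with adjusted p up to 0.112.

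MCM7 fell by 0.47 ± 0.13 on the log2 scale in U87 MG, with 3148, 3918 and 3744 in STM2457, against 4292, 5017 and 5721 in DMSO (limma adjusted p = 0.0456). It fell by 1.06 ± 0.22 in LN229 and by 1.36 ± 0.39 in LN229-R, where it had 3181, 1061 and 2911 with STM2457, against 6236, 4378 and 6050.3 with DMSO (limma adjusted p = 0.0259). MCM2, the subunit most often used as a marker of licensed cells, passed in LN229 with 2552, 1443 and 2623 in STM2457, against 3420.2, 2936 and 3355 in DMSO (−0.60 ± 0.21, limma adjusted p = 0.0430). MCM2 did not pass elsewhere: its changes were −0.17 ± 0.10 in U87 MG, −0.02 ± 0.14 in U87-R and −0.77 ± 0.48 in LN229-R. In U87 MG it had 3525, 3956 and 4404 with STM2457, against 4227, 4476 and 4582 with DMSO. U87-R had 3069.9, 2918 and 3934 with STM2457, against 3035, 3138 and 3897 with DMSO. LN229-R had 1526, 409 and 1333 with STM2457, against 1998, 1069 and 1949.9 with DMSO. In these 3 lines treated and control values overlapped. CDC6, the loader ATPase, fell in LN229 to 754, 522 and 717, against 1583, 1411 and 1434 in DMSO (−1.17 ± 0.14, limma adjusted p = 0.000361), and in LN229-R by 1.24 ± 0.42 on the log2 scale (limma adjusted p = 0.0492).

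Among the helicase activation genes, 5 of 6 fell in LN229, where 23.6% of all genes did, and GINS3 rose. CDC45, which completes the active helicase, had 439, 276 and 379.9 normalized counts with STM2457 in the libraries labelled LN229, against 1171, 955 and 1188 with DMSO. Its change of −1.61 ± 0.17 (limma adjusted p = 0.000201) followed those of RRM2 and CCNE2 in size among the members there. It had 456, 119 and 363 in LN229-R with STM2457, against 1027, 411 and 859 with DMSO (−1.40 ± 0.52, limma adjusted p = 0.0652), and the groups overlapped through the DMSO library of replicate 2. In U87 MG it had 314, 429 and 431 with STM2457, against 476, 640.5 and 819 with DMSO (−0.70 ± 0.21, limma adjusted p = 0.0610). The U87-R libraries had 402, 398 and 444 with STM2457, against 474, 414 and 575 with DMSO (−0.22 ± 0.15, limma adjusted p = 0.367). CDC45 therefore passed in 1 line of 4, and in U87-R its groups overlapped.

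GINS3 had 393, 485 and 425 normalized counts in U87 MG with STM2457, against 253, 249 and 243 with DMSO (0.80 ± 0.14, limma adjusted p = 0.00738). In U87-R it had 379.9, 302 and 370.3 with STM2457, against 200.01, 190.2 and 190.2 with DMSO (0.85 ± 0.15, limma adjusted p = 0.00856). The libraries labelled LN229 had 639, 481 and 676 with STM2457, against 409.8, 377 and 437 with DMSO (0.54 ± 0.14, limma adjusted p = 0.0147). Every treated library lay above every control in these 3 lines. In LN229-R, 2 treated libraries (592 and 546) lay above all controls (394, 252 and 351) and replicate 2 (234) below them, a change of 0.37 ± 0.35 (limma adjusted p = 0.431); without replicate 2 in both groups GINS3 passed there too. The LN229 call was lost without DMSO replicate 2 or STM2457 replicate 3, with adjusted p up to 0.0546 in limma. Its partner GINS4 had 430.3, 335 and 449.6 in LN229 with STM2457, against 934, 956 and 909.6 with DMSO (−1.21 ± 0.12, limma adjusted p = 0.000157). GINS1, GINS2 and MCM10, which helps the helicase to start, also fell in LN229, so the 4 subunits of one complex did not move together.

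**Figure D2:**
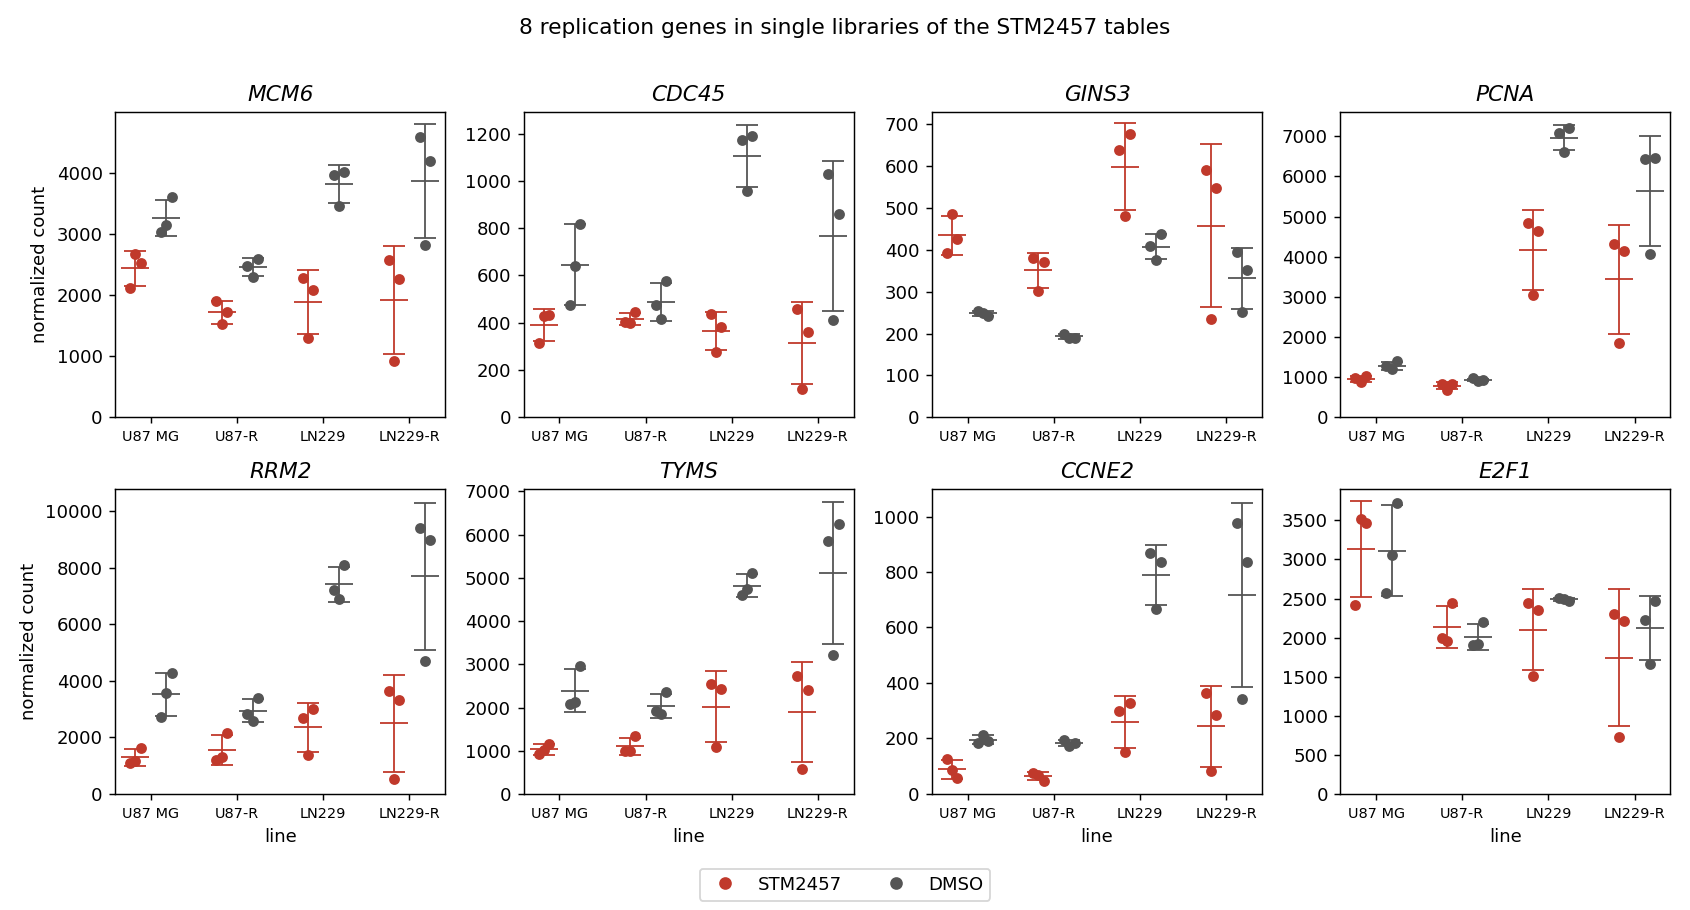
Normalized counts (y axis, from 0) of 8 members in each library, with STM2457 in red left of DMSO in grey for each line; bars give the mean and SD of 3 libraries. Treated libraries of GINS3 lie above all controls in U87 MG, U87-R and LN229, while those of MCM6, RRM2 and TYMS lie below all controls in every line.

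Polymerase, clamp and ligase genes fell in 12 of 14 cases in LN229, 6 in LN229-R, 2 in U87 MG and none in U87-R. The shares of all genes that fell there were 23.6%, 17.1%, 5.72% and 6.2%. POLA2, the second subunit of polymerase α, had the lowest adjusted p of all members in both LN229 lines. It had 919, 711 and 865 normalized counts with STM2457 in LN229, against 1795, 1789.6 and 1889 with DMSO (−1.14 ± 0.11, limma adjusted p = 9.97e-05). In LN229-R it had 1123, 595 and 1094 with STM2457, against 2044, 1455 and 2184 with DMSO (−1.05 ± 0.26, limma adjusted p = 0.0158). Its groups were apart in both. The catalytic subunit POLA1 had 378, 194 and 331 in LN229-R with STM2457, against 693, 421 and 695 with DMSO (−1.02 ± 0.29, limma adjusted p = 0.0269), and the primase subunit PRIM1 had 255, 131 and 236, against 464, 332 and 497 (−1.09 ± 0.28, limma adjusted p = 0.0177). DNA ligase 1 (LIG1), which joins Okazaki fragments, had 607, 315 and 638 there with STM2457, against 1281, 827 and 1161 with DMSO (−1.11 ± 0.29, limma adjusted p = 0.0177). All 3 genes fell in LN229 as well.

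PCNA, the clamp, had 969, 884 and 1020.3 normalized counts in U87 MG with STM2457, against 1273, 1196 and 1397 with DMSO (−0.43 ± 0.11, limma adjusted p = 0.0349). In LN229 it had 4847, 3036 and 4637 with STM2457, against 7077, 6609.7 and 7196 with DMSO (−0.77 ± 0.17, limma adjusted p = 0.00563). In both, treated libraries lay below controls. It did not pass in U87-R, with 832, 685 and 833 against 971, 903 and 918 in DMSO (−0.25 ± 0.12, limma adjusted p = 0.197), nor in LN229-R, with 4306, 1861 and 4136 against 6428, 4068 and 6449 in DMSO (−0.78 ± 0.33, limma adjusted p = 0.0954). The call in U87 MG was lost on leaving out any 1 library. POLE, the catalytic subunit of the leading strand polymerase, fell in U87 MG to 1867, 2059 and 1909, against 2786, 2653 and 2493 in DMSO (−0.44 ± 0.09, limma adjusted p = 0.0167). It also fell in LN229-R to 918, 399.6 and 1196, against 2169, 1270.2 and 1719.7 in DMSO (−1.14 ± 0.38, limma adjusted p = 0.0459).

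All 4 clamp loader genes of the list fell in LN229, and RFC4 also in LN229-R. RFC4 had 539, 398 and 553 normalized counts with STM2457 in LN229, against 847, 860.3 and 969.6 with DMSO (−0.86 ± 0.14, limma adjusted p = 0.00152). In LN229-R it had 476, 296 and 495 with STM2457, against 841, 531 and 876 with DMSO (−0.83 ± 0.26, limma adjusted p = 0.0360). RFC3 had 717, 407 and 734 with STM2457 in LN229, against 1465, 1185 and 1439 with DMSO (−1.18 ± 0.22, limma adjusted p = 0.00268). RFC2 and RFC5 fell in LN229 too. In both U87 lines the 4 loader genes did not pass.

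Fork protection, chromatin and entry control held most of the genes that did not pass. SLBP, which binds the stem loop of histone mRNA, had 1056, 1018 and 966 normalized counts with STM2457 in U87 MG, against 1112, 1235 and 1459.6 with DMSO (−0.32 ± 0.12, limma adjusted p = 0.121). The U87-R libraries had 715, 534 and 529.5 with STM2457, against 789, 690.4 and 617 with DMSO (−0.24 ± 0.16, limma adjusted p = 0.339). It had 1678, 1247 and 1653 in LN229 with STM2457, against 1731, 1698 and 1729 with DMSO, and 1782, 1299 and 1872 in LN229-R, against 1854, 1578 and 1906 with DMSO. SLBP passed in none of the 4 lines, with limma adjusted p of 0.227 in LN229 and 0.571 in LN229-R. TIMELESS, a fork protection gene, was the only gene of its role that fell, in LN229 (−0.76 ± 0.15, limma adjusted p = 0.00365).

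CCNE2, the cyclin E2 gene that acts with CDK2 at S phase entry, had 125, 84.9 and 56.9 normalized counts with STM2457 in U87 MG, against 183, 214 and 192 with DMSO (−1.20 ± 0.28, limma adjusted p = 0.0235). In U87-R it had 76.0, 68.5 and 48.1 with STM2457, against 195, 172 and 183 with DMSO (−1.53 ± 0.22, limma adjusted p = 0.00371), the lowest adjusted p of any member there. The LN229 libraries had 297, 152 and 328 with STM2457, against 868, 666 and 836 with DMSO (−1.67 ± 0.27, limma adjusted p = 0.00142). No treated library reached a control value in these lines. Its relative CCNE1 passed in none of the 4 lines. E2F1, the factor whose targets include much of this list, passed in none either: it had 2422, 3517 and 3465 with STM2457 in U87 MG, against 2569, 3054 and 3722 with DMSO (0.01 ± 0.18, limma adjusted p = 0.989). U87-R had 1996, 1959 and 2446 with STM2457, against 1912, 1916 and 2201 with DMSO (0.08 ± 0.12, limma adjusted p = 0.693). LN229 had 2448, 1504 and 2352 with STM2457, against 2507, 2498 and 2469.8 with DMSO (−0.28 ± 0.17, limma adjusted p = 0.203), and LN229-R had 2296, 728 and 2213, against 2231, 1669 and 2464 (−0.44 ± 0.41, limma adjusted p = 0.427). E2F1 values overlapped between groups in 3 lines and did not in LN229. E2F2, an activating factor, and E2F8, a repressing one, fell in LN229 and passed in no other line.

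Replicate 2 held the lowest level of these genes in both LN229 tables. For each library, the median deviation of the 44 genes from the mean of its table was taken on the log2 scale. In LN229-R it was 0.06, −1.36 and 0.06 with STM2457, against 0.74, −0.10 and 0.69 with DMSO. In LN229 it was −0.18, −0.84 and −0.10 with STM2457, against 0.42, 0.27 and 0.48 with DMSO. Treated libraries lay below controls in LN229, whereas in LN229-R the treated replicates 1 and 3 lay above the DMSO library of replicate 2. The 20 mitosis genes moved the same way: their medians were 0.06, −1.82 and −0.12 in LN229-R with STM2457, against 0.90, −0.04 and 0.98 with DMSO. The part of replicate 2 in the results was not tested beyond the values with and without it.

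Within each replicate number, treated libraries lay below their control for 38 of the 44 genes in all 3 replicates of LN229-R, as they did for 36.3% of all genes. The median log2 ratio was −0.63, −1.31 and −0.70 in replicates 1, 2 and 3. Same-numbered LN229-R libraries deviated together, with correlations of 0.102 to 0.321. A fit with the replicate number as a block called 34 members lower and none higher, with 23.7% of all genes lower and 4405 of 17063 higher. Leaving out replicate 2 from both groups, an alternative chosen after seeing the data, gave 33 members lower and 1 (GINS3) higher. Of all genes 23% were lower there and 4432 of 16979 higher. No member passed on leaving out DMSO replicate 1 or DMSO replicate 3 alone. RRM2, CCNE2 and CDC45, which missed the threshold above, had adjusted p of 0.00308, 0.000349 and 0.000601 in limma with the block. In U87-R, where same-numbered libraries also deviated together (0.114 to 0.298), the block gave 10 members lower, with 13.9% of all genes lower. It gave 2 members higher, with 2545 of 16185 genes higher. The members gained there were POLA1, POLA2, PRIM1, CDC6, MCM7 and E2F8, lower, and CHAF1A, higher.

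Calls of the fits without the block were also examined by leaving out each library in turn. In U87 MG, TYMS, RRM2 and GINS3 passed in all 6 such fits, while the other 5 calls were each lost in at least 4 of them. In U87-R, CCNE2, TYMS and GINS3 passed in all 6 fits; MCM6 was lost without DMSO replicate 1 or STM2457 replicate 2, and RRM2 without any of these or STM2457 replicate 1. In LN229, 20 of the 33 calls passed in all 6 fits, among them TYMS, RRM2, CDC45, CDC6, POLA2 and CCNE2, while MCM2 was lost without any 1 DMSO library. In LN229-R none of the 10 calls passed in all 6.

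**Figure D3:**
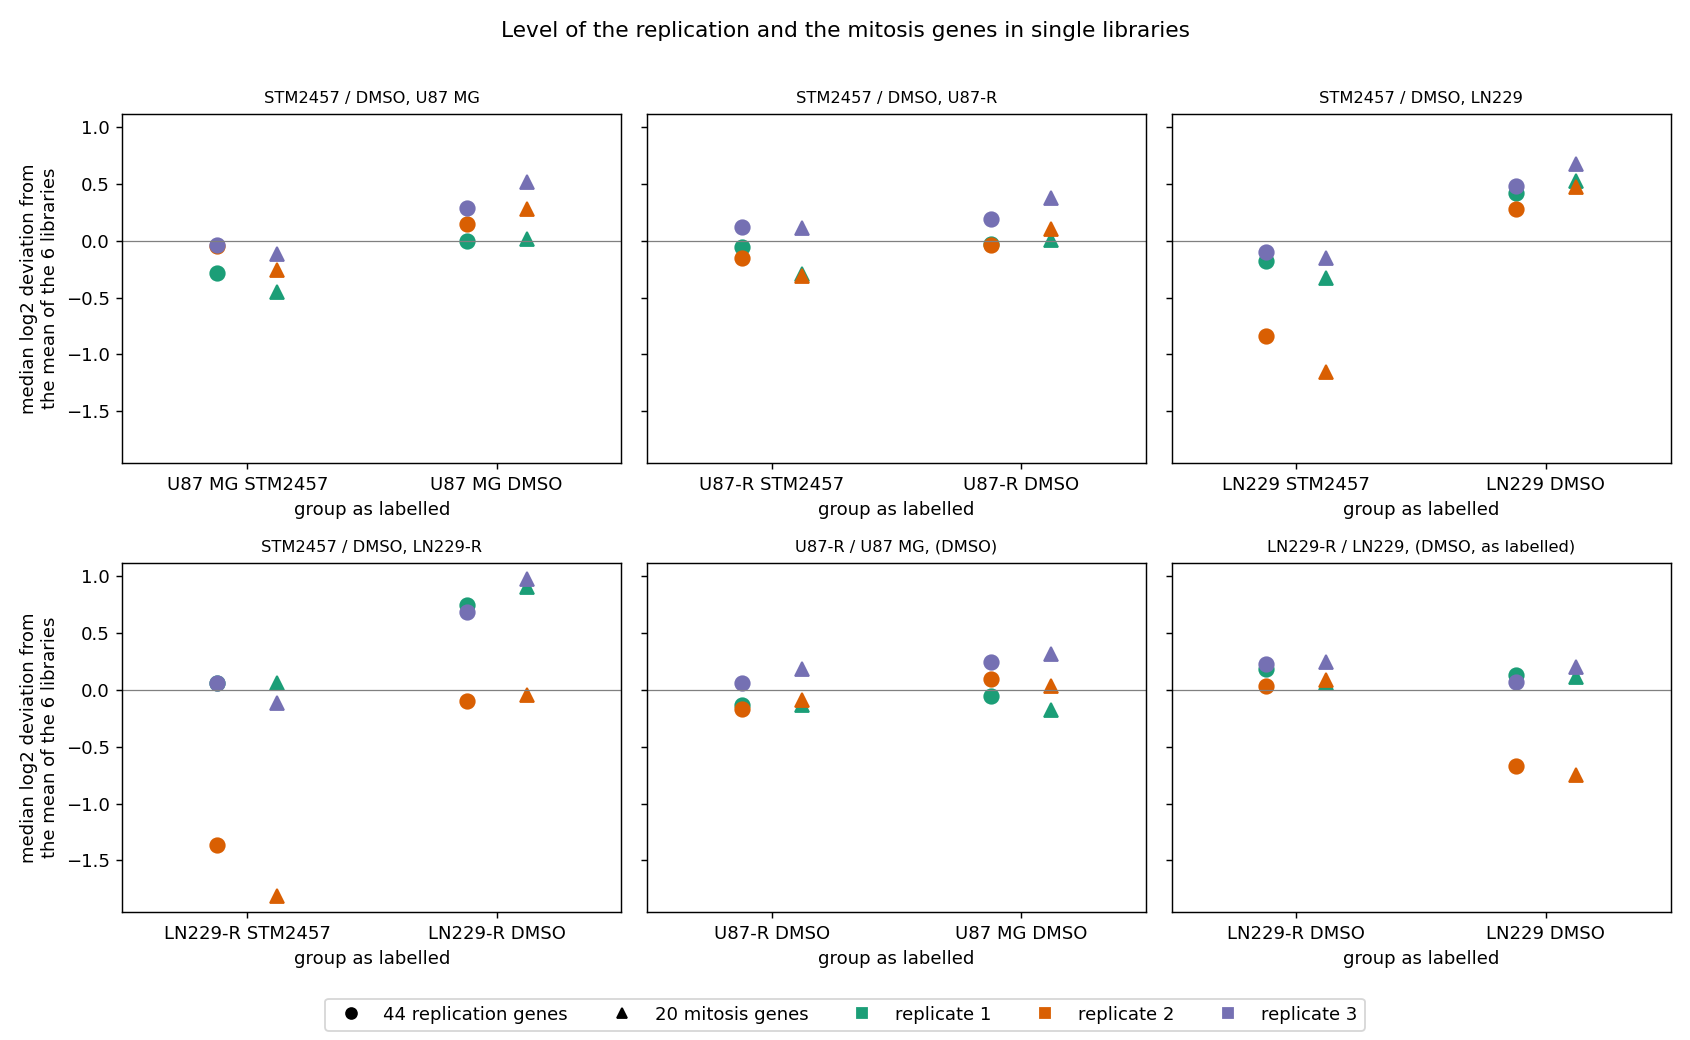
Median log2 deviation from the mean of the 6 libraries of each table (y axis) for the 44 replication genes (circles) and 20 mitosis genes (triangles), with colours for replicates. In the LN229-R table the STM2457 library of replicate 2 is at −1.36 for the replication genes and the other treated libraries at 0.06.

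The effect of STM2457 was compared between lines by the difference of the log2 changes within tables. Between the lines labelled as parental, 3 of the 44 members had a lower change in LN229 than in U87 MG. Past the threshold were 16.5% of 16075 genes in either direction and 6.36% in this one, so the members' share was close to the background. RFC3 changed by −1.18 ± 0.22 in LN229 and −0.03 ± 0.15 in U87 MG, a difference of −1.15 ± 0.28 (95% interval −1.76 to −0.53, limma adjusted p = 0.0155). RFC5, another loader subunit, changed by −0.85 ± 0.17 and −0.01 ± 0.14 in the same lines, a difference of −0.84 ± 0.24 (limma adjusted p = 0.0284). GINS4 changed by −1.21 ± 0.12 in LN229 and −0.24 ± 0.22 in U87 MG, a difference of −0.97 ± 0.28 (limma adjusted p = 0.0297). In U87 MG, RFC3 had 302, 372 and 306 with STM2457, against 295, 373 and 333 with DMSO, and RFC5 had 582, 696 and 754, against 657, 616 and 766. GINS4 had 404, 678 and 491 there with STM2457, against 472, 653 and 722 with DMSO. Values of all 3 genes overlapped between groups in U87 MG and did not in LN229, where RFC5 had 479, 312 and 465 with STM2457, against 767, 662 and 796 with DMSO. The difference for RFC3 passed whichever of the 12 libraries was left out; those for RFC5 and GINS4 were each lost in 6 of the 12 fits, GINS4 among them without LN229 STM2457 replicate 2.

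The other 41 members did not pass this test, although 41 of the 44 differences were negative, with a median of −0.41 and a median of all genes of −0.01. TYMS and RRM2, which fell in both lines, had differences of −0.16 (95% interval −0.95 to 0.63) and −0.29 (−1.07 to 0.50). CDC45, which passed in LN229 and not in U87 MG, had a difference of −0.91 (unadjusted 95% interval −1.57 to −0.26) that missed the threshold after adjustment (limma adjusted p = 0.0557). Without LN229 STM2457 replicate 2 the median difference was −0.15.

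**Figure D4:**
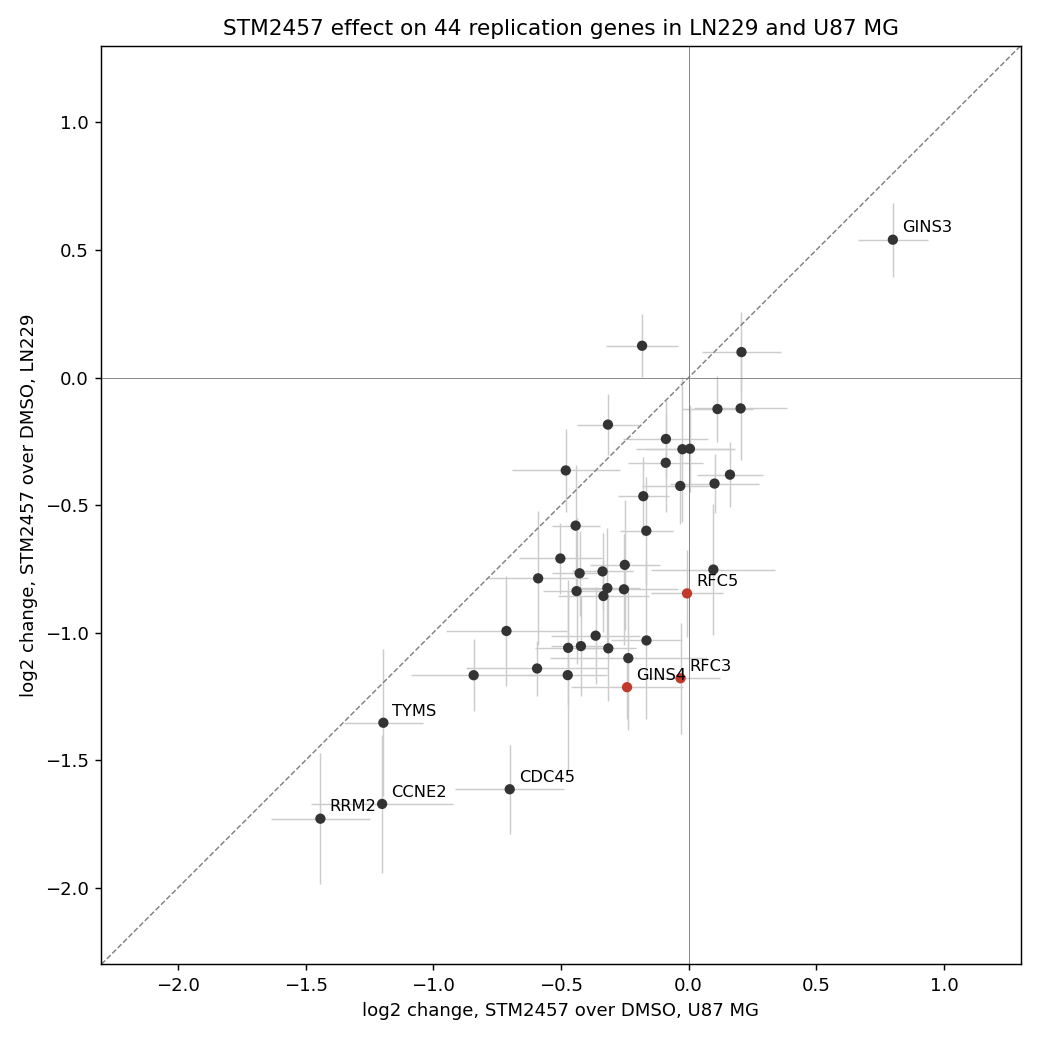
Log2 change with STM2457 in LN229 (y axis) against that in U87 MG (x axis) for 44 genes, with bars for the SE and a dashed line of equal change. RFC3, RFC5 and GINS4, in red, passed the test of the difference; GINS3 lies above 0 on both axes.

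Between LN229-R and U87-R no member passed (limma, smallest adjusted p = 0.0882 for LIG1, 7 members at an unadjusted p under 0.05), while 12.9% of 15848 genes did. The median difference was −0.64, and −0.14 without LN229-R STM2457 replicate 2. The replicate block was also fitted, since same-numbered libraries deviated together in both tables. With it, 21 members had a lower change in LN229-R than in U87-R, as had 10.3% of genes, RFC3 first (−1.09 ± 0.16, limma adjusted p = 0.00180). Between U87-R and U87 MG 0 of 16403 genes passed (0%), with 617 at an unadjusted p under 0.05, of which 2 were members (MCM4 and CHAF1B). For RRM2 that difference was 0.48 (95% interval −0.20 to 1.17) and for GINS3 0.05 (−0.37 to 0.46). Between LN229-R and LN229, 1 of 17072 genes passed (0.00586%), no member at an unadjusted p under 0.05, and 709 genes at that level. The 95% interval of that difference for RRM2 was −2.09 to 1.58.

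Without STM2457, few members differed between resistant and parental lines. In U87-R, 1 of the 44 genes was lower than in U87 MG and none higher, against 1.15% and 3.13% of all genes. That gene was SLBP, with 819, 720.0 and 638 normalized counts in U87-R, against 991, 1099 and 1293 in U87 MG (−0.63 ± 0.14, limma adjusted p = 0.0411). The groups did not overlap, yet the call was kept in 1 of the 6 fits that left out a library (without U87 MG DMSO replicate 1), with adjusted p up to 0.134. The other leading genes did not pass. MCM2 had 3096, 3217 and 3962 in U87-R, against 3898, 4121 and 4199 in U87 MG, and CDC45 had 488, 428 and 589.9, against 458, 615 and 784. PCNA had 988, 924 and 931 in U87-R, against 1170.5, 1098 and 1277 in U87 MG. RRM2 had 2954, 2697 and 3513 in U87-R, against 2698, 3528 and 4199 in U87 MG, and E2F1 had 1944, 1957 and 2229.6, against 2339, 2776 and 3369. PCNA and E2F1 lay below all U87 MG libraries, with adjusted p of 0.161 and 0.122 in limma, and the others overlapped. The median log2 change of the members was −0.17, with 36 of 44 negative, and it was −0.085 without U87 MG DMSO replicate 3 and −0.25 without U87-R DMSO replicate 3.

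In the resistance table of the other family, 2 members were higher in the libraries labelled LN229-R and none lower than in those labelled LN229, against 5.6% and 3.65% of all genes. The 2 of 44 were thus close to the background. As labelled, the change was positive for 43 members and negative for 1, with a median of 0.31, or 0.03 without the replicate 2 library labelled LN229. MCM2 had 3845, 3291 and 3765 normalized counts in libraries labelled LN229-R, against 2028, 1080.4 and 1974 in those labelled LN229 (1.15 ± 0.23, limma adjusted p = 0.0184). CDT1, which loads the ring with CDC6, had 1234, 1239.6 and 1217 in those labelled LN229-R, against 841, 628 and 901 in those labelled LN229 (0.65 ± 0.14, limma adjusted p = 0.0237). Neither gene overlapped between groups. With the names of the STM2457 tables, the same libraries give −1.15 and −0.65, so the direction depends on which table is named rightly. Both calls were lost on leaving out any 1 library labelled LN229-R.

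Without the replicate 2 library labelled LN229, MCM2 and CDT1 were still higher, with PCNA, TK1, CCNE1 and E2F1, while E2F8 was lower. In that fit 10.4% of all genes were higher and 8.59% lower, so 6 of 44 higher was close to the background. The median of the members was 0.03 without that library and 0.31 with it. With the replicate block (same-numbered libraries correlated at 0.114 to 0.204), 6 members were higher, as were 8.32% of all genes: MCM2, CDT1, MCM7, PCNA, TK1 and CCNE1. CDC45 had 1291, 1050.2 and 1308 in libraries labelled LN229-R, against 1193, 475 and 995 in those labelled LN229 (0.55 ± 0.30, limma adjusted p = 0.316). PCNA had 7950.4, 7402 and 8070.4, against 6443, 4058 and 6444 in those labelled LN229 (0.50 ± 0.17, limma adjusted p = 0.121). RRM2 had 7751, 7373 and 8682 in those labelled LN229-R, against 9744, 4837 and 9257 in those labelled LN229. SLBP had 1938, 1895 and 1932, against 1858, 1574 and 1905, and E2F1 had 2848, 2829 and 2801, against 2258, 1681 and 2486. None of these 5 passed, and in each the replicate 2 library labelled LN229 was the lowest of the 6.

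Other genes of replication that are not among the 44 (48 genes) fell in part alongside them. STM2457 lowered 6 of the 48 and raised 2 in U87 MG, lowered 4 and raised 3 in U87-R, lowered 30 and raised 2 in LN229, and lowered 11 and raised 2 in LN229-R. Of all genes, 5.72%, 6.2%, 23.6% and 17.1% fell in the same order of lines, and 7.86%, 8.46%, 26.2% and 21.5% rose. The falls in U87-R (4 of 48) were thus close to the background, and those in LN229-R (11 of 48) not far above it. POLD4, the small subunit of polymerase δ, rose in all 4 lines, for example to 1468, 1646 and 1488 in LN229, against 548, 623 and 686 in DMSO (1.31 ± 0.11, limma adjusted p = 4.79e-05). FEN1, the flap endonuclease of Okazaki fragments, rose in U87 MG to 3854, 4772 and 4915, against 1710.2, 1758 and 2078 in DMSO (1.28 ± 0.13, limma adjusted p = 0.00131). In U87-R it had 4469, 5194 and 6406 with STM2457, against 1759, 1698 and 2179 with DMSO (1.504 ± 0.15, limma adjusted p = 0.000923). FEN1 rose in LN229 too, and in LN229-R the change was 1.10 ± 0.47 (limma adjusted p = 0.0971). DUT, which keeps uracil out of DNA, fell in U87 MG to 930.1, 937 and 861, against 1431, 1363 and 1503 in DMSO (−0.65 ± 0.10, limma adjusted p = 0.00452). ATAD2, a bromodomain ATPase, fell in U87 MG by 0.63 ± 0.10 and SAMHD1, which degrades deoxynucleotides, by 0.63 ± 0.13. SAMHD1 fell in U87-R by 0.92 ± 0.11, with ATAD2 (0.63 ± 0.13) and DUT (0.41 ± 0.11), while POLD4 and E2F7 rose, yet SAMHD1 rose by 1.01 ± 0.20 in LN229-R. In both LN229 lines RPA3 and POLD2 had the lowest adjusted p among the falls of this list, with RPA2 next in LN229 and DUT in LN229-R. Between lines in DMSO, E2F7 was higher in U87-R (0.65 ± 0.14) and POLE3 in the libraries labelled LN229-R (0.40 ± 0.08).

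Of the 20 mitosis genes, 7 fell in U87 MG, 7 in U87-R, 18 in LN229 and 6 in LN229-R, where 5.72%, 6.2%, 23.6% and 17.1% of all genes fell, and none rose. Their median log2 changes were −0.55, −0.43, −1.15 and −1.26 in the same order of lines. In U87-R, the median of the 44 replication genes was −0.04. Those of lowest adjusted p were TOP2A, NDC80 and CDK1 in U87 MG, KIF11, TOP2A and BUB1 in U87-R, BUB1, UBE2C and NUSAP1 in LN229, and NUSAP1, CCNB2 and NDC80 in LN229-R. Among 7 cell cycle brakes and pocket proteins, RB1 fell in U87 MG (−0.54 ± 0.14), LN229 (−0.50 ± 0.07) and LN229-R (−0.49 ± 0.14). CDKN1A, the p21 gene, fell in LN229 (−0.36 ± 0.11) and LN229-R (−0.60 ± 0.20), and E2F4 and E2F5 fell in LN229. None of the brakes passed in U87-R, none passed between the U87 lines, and E2F4 was higher in the libraries labelled LN229-R (0.66 ± 0.08, limma adjusted p = 0.00203). Markers of endothelium, PECAM1 and CDH5, rose in LN229 with STM2457 from low levels, PECAM1 to 72.5, 30.7 and 18.9, against 15.4, 13.1 and 6.33 in DMSO. KRT18, an epithelial keratin, and SNAP25, a neuronal gene, fell in LN229 (−0.61 ± 0.11 and −1.80 ± 0.15) and LN229-R (−0.74 ± 0.14 and −1.81 ± 0.14), and SNAP25 also fell in U87 MG (−0.43 ± 0.12). Among the glioma and astroglial markers, S100B, VIM, NES and SOX2 fell and CD44 rose of 6 tested in LN229, S100B fell and CD44 rose of 6 in LN229-R, NES fell of 4 in U87 MG, and none of 3 passed in U87-R. In DMSO, NES was higher in U87-R than in U87 MG, while KRT18 was higher and S100B lower in the libraries labelled LN229-R than in those labelled LN229. The part of these marker genes in the results above was not tested.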

How the data were processed

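Poly(A) RNA of 24 libraries (4 glioma lines, DMSO or STM2457, 3 replicates each) was read from 6 tables of 6 libraries. The deposited signal values are normalized counts per gene made by the authors; the submitters' processing notes name Trimmomatic 0.39, STAR 2.7.11a, Salmon 1.4.0, DESeq2 and GRCh38, without saying which step made which value. Whole reads could not be recovered, so depth in reads is unknown and count tests were not used. Values were taken as log2(value + 1), so the fold changes of low genes are understated. Genes with a mean of at least 10 were fitted with limma 3.58.1 (R 4.3.3, with the variance trend) within each table, and p-values were adjusted after Benjamini and Hochberg over all genes tested. Effects of STM2457 were compared between lines by the difference of log2 changes in a joint fit of 12 libraries. The code was tested on simulated data.

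The members and gene lists were chosen with earlier results of these data known. Members that passed (at most the 8 of lowest adjusted p in each comparison), MCM2, CDC45, PCNA, RRM2, SLBP and E2F1, and members that passed a difference between lines are named. From the lists of 48 other replication genes, 20 mitosis genes and 8 brakes, of which 7 were found in the files, the passing genes are named where they are 6 or fewer, otherwise the 3 of lowest adjusted p in each direction. Same-numbered libraries were taken as paired where all 3 correlations of their deviations from the group means exceeded 0.1; this comes from the data and not from the labels, and held for STM2457 in U87-R and LN229-R and for LN229-R against LN229. Promoters were RefSeq sequences of GRCh38.p14. Alternatives were other pseudocounts, filters, scalings and thresholds, limma without the trend, a replicate block, exchanged line names and leaving out libraries. Figures were drawn with matplotlib 3.10.9 in Python 3.11.15.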

Additional observations from a re-analysis of the deposited data

Results flagged for a closer look

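The effect of STM2457 differed between the lines LN229 and U87 MG for 3 of the 44 members by a test of the difference itself in limma, which 16.5% of all genes passed in either direction and 6.36% in the direction of these 3. The difference of log2 changes, LN229 minus U87 MG, was −1.15 for RFC3, −0.84 for RFC5 and −0.97 for GINS4, with adjusted p of 0.0155, 0.0284 and 0.0297. RFC3 and RFC5 are subunits of the clamp loader and GINS4 is a subunit of the GINS complex. All 3 fell in LN229, and in U87 MG their treated and control libraries overlapped. The difference for RFC3 passed in all 12 fits that left out a library, and those for RFC5 and GINS4 were each lost in 6 of the 12. The lines also differ in medium and library kit, which cannot be told apart from the line. Whether the libraries labelled LN229 came from the parental or the resistant line was not determined, so temozolomide in the medium may differ as well.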

How the results depend on the processing

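In STM2457-treated LN229 the count of members that passed, 33, was 21 to 34 when single libraries were left out, with 6591 to 8621 genes called. It was 18 at an adjusted p under 0.01. Without the variance trend, members called numbered 0 for U87-R against U87 MG, 0 for LN229-R against LN229, and 3 each for STM2457 in U87 MG, U87-R and LN229-R. Genes called numbered 396 and 951 between lines in DMSO, 1301 and 1372 in U87 MG and U87-R, and 5823 in LN229-R. At an adjusted p under 0.01, members numbered 0 and 0 between lines, 3 in U87 MG, 3 in U87-R and 0 in LN229-R, and genes 262, 543, 783, 811, 5480 in LN229 and 3521 in LN229-R. With the replicate block, members numbered 4 for U87-R against U87 MG, 6 for LN229-R against LN229, and 18, 12 and 34 for STM2457 in U87 MG, U87-R and LN229-R. Genes called numbered 1176, 2600, 4137, 4796 and 8444 in the same order. In the tables not taken as paired, the correlations were 0.019 to 0.140 (U87-R against U87 MG), 0.039 to 0.186 (U87 MG) and 0.068 to 0.099 (LN229). Each of these ranges starts under the cut-off of 0.1, which does not show that pairing was absent there. Without replicate 2 in both groups, chosen after seeing the data, 6 members and 2433 genes passed for LN229-R against LN229, and 34 members and 8336 genes in LN229-R. Equal upper quartiles gave 18 members in LN229-R, all lower, with 6823 genes called, of which 3477 were lower.

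For differences between lines, the block gave 13 members for LN229 minus U87 MG, all lower, with 3520 genes called, of which 1455 were lower among 16075 tested, 21 members and 3825 genes for LN229-R minus U87-R, and 3 genes for LN229-R minus LN229. For LN229 minus U87 MG, equal totals and equal upper quartiles gave 6 members each, with 2919 and 2712 genes, and the threshold of 0.01 gave 0 members and 1182 genes. For LN229-R minus U87-R, equal totals gave 1 member and 2121 genes, and the threshold of 0.01 gave 896 genes. U87-R minus U87 MG gave 1 gene with a pseudocount of 5 and 1 without the trend, and LN229-R minus LN229 gave 2 genes with a pseudocount of 0.5 and 2 without the trend.

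With the LN229 names exchanged, the member median for LN229-R against LN229 was −0.31, MCM2 −1.15 and CDT1 −0.65. The member median in U87-R, −0.04, was 0.013 with equal totals and −0.159 to 0.0566 when single libraries were left out. Leaving out single libraries gave 0 to 1 members and 315 to 607 genes for U87-R against U87 MG, 0 to 7 and 534 to 3262 for LN229-R against LN229, 3 to 7 and 890 to 1803 in U87 MG, 3 to 6 and 884 to 2217 in U87-R, and 0 to 17 and 4364 to 6425 in LN229-R. It gave 0 to 5 genes for U87-R minus U87 MG and 1 to 4 for LN229-R minus LN229. For LN229 minus U87 MG it gave 1 to 7 members and 1902 to 2658 genes, and for LN229-R minus U87-R 0 to 2 members and 1515 to 2002 genes. Equal totals moved the share of higher among called genes to 68.6% in U87 MG, 71.6% for LN229-R against LN229 and 46.3% for LN229 minus U87 MG. Counts also went up with fewer samples: the highest for LN229-R against LN229 (7 members, 3262 genes) came without LN229 DMSO replicate 2. In LN229-R 17 members passed without DMSO replicate 2, with 6230 genes called. The cause of these shifts was not tested. The 3 replicates a group and unknown read depth limit all of these values.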
